A study of Mus musculus with 16 samples.

Results

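The alpha- and beta-tubulin genes encode the protein pair from which every microtubule is built. Their messenger RNA was followed in C2C12, an immortalised mouse myoblast line that fuses into multinucleated myotubes, with and without Fam134b, which encodes a receptor for the autophagy of the endoplasmic reticulum (ER-phagy). The genes were chosen by symbol: the alpha-tubulin genes Tuba1a, Tuba1b, Tuba1c and Tuba4a and the beta-tubulin genes Tubb2a, Tubb2b, Tubb3, Tubb4b, Tubb5 and Tubb6. These are 10 of the 31053 genes in the expression table, and all 10 were among the 10767 genes expressed highly enough to test. There were 4 groups of 4 samples: WT myoblasts, WT myotubes, Fam134b knockout (KO) myoblasts and KO myotubes. The genotype and stage come from the sample titles, since a separate genotype entry reads unknown for each sample. All cells were grown in DMEM with 10% FBS. KO cells came from lentiviral delivery of Cas9 and guide RNAs followed by antibiotic selection. How the WT cells were handled alongside is not stated, so WT and KO cells may also differ in having gone through these steps. The sources used here do not say whether the KO line was 1 clone. The samples are labelled biological replicates, and the study's methods call its replicates independent without describing what that meant for these cultures. The p-values measure the spread between these samples, which may be partly technical.

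An alpha- and a beta-tubulin form a dimer that polymerises head to tail into the wall of the microtubule, the track for transport and the scaffold of the mitotic spindle. Mammals carry several genes, or isotypes, for each, which encode similar proteins that differ mostly in their acidic tails and in where they are expressed. When myoblasts leave the cell cycle and fuse, the centrosome gives up its role as organising centre and microtubules come to run along the length of the myotube, anchored at the nuclear envelope.

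In the GENCODE M21 annotation of GRCm38, Tuba1b (chr15:98931425-98934565, minus strand), Tuba1a (chr15:98949837-98953703, minus strand) and Tuba1c (chr15:99029891-99038110, plus strand) are neighbours on chromosome 15. Tuba4a is on chromosome 1 (chr1:75214228-75219865, minus strand). Tubb2a (chr13:34074274-34078007) and Tubb2b (chr13:34126748-34130466) lie next to each other on the minus strand of chromosome 13. Tubb3 is at chr8:123411424-123422015 (plus strand), Tubb4b at chr2:25222160-25224702 (minus strand) and Tubb5 at chr17:35833921-35838306 (minus strand). RefSeq promoter sequence (GRCm38.p6) was matched for 8 of the 10 genes, all but Tubb2b and Tubb6, and the up to 250 bases before the annotated start were searched on both strands for 5 short motifs. The promoters of Tubb4b, Tubb5 and Tuba1c, which fell during differentiation of KO cells, and of Tubb2a, which rose in WT cells, are shown 5′ to 3′ on the gene's strand. They are examples: Tuba1a fell in KO cells too and its window is not printed. The calls of Tubb5 and Tubb2a were lost in 12 and 6 of 29 alternative analyses. Capitals mark CCAAT (or its reverse complement ATTGG), the sequence TTTGAA of the cell cycle homology region (CHR), and TATAAA.
Tubb4b chr2:25224703-25224952 (minus strand): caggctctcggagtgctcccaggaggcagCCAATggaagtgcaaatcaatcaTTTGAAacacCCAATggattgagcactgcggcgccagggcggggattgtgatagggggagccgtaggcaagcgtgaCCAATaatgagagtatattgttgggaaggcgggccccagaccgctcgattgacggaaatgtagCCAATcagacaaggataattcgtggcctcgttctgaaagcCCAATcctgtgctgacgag
Tubb5 chr17:35838307-35838551 (minus strand): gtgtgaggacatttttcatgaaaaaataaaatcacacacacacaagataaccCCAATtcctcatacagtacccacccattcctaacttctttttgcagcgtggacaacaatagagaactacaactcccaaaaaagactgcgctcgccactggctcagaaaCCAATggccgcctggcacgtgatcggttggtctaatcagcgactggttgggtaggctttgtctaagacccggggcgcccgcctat
Tuba1c chr15:99029641-99029890 (plus strand): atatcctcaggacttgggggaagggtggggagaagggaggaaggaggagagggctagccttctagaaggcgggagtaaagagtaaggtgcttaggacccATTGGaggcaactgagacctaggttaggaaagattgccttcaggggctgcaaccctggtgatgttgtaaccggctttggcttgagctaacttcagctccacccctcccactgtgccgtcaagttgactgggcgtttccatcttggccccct
Tubb2a chr13:34078009-34078258 (minus strand): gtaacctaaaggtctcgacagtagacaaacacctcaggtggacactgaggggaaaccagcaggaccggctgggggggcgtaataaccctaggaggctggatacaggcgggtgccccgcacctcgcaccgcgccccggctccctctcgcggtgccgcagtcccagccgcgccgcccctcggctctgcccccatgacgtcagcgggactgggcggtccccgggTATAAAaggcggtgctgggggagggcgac

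The Tubb4b window held 5 CCAAT matches and 1 TTTGAA match. Tubb5 held 2 CCAAT matches, Tuba1a, Tuba1c and Tubb3 held 1 each, and Tuba1b, Tuba4a and Tubb2a held 0. Of the 32851 mouse promoter windows of this length, 33.85% held at least 1 CCAAT and 0.2131% held 5 or more, which is 70 windows. TTTGAA was in 15.99% of windows and, among the tubulin promoters, in that of Tubb4b, where it overlapped the only match to the E-box CANNTG (66.22% of windows). TATAAA was in 12.37% of windows and, among the tubulin promoters, in that of Tubb2a. The GC box GGGCGG, in 32.74% of all windows, was found in 6 of the 8 tubulin windows. A match describes the letters only; binding at these windows was not measured.

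**Figure D1:**
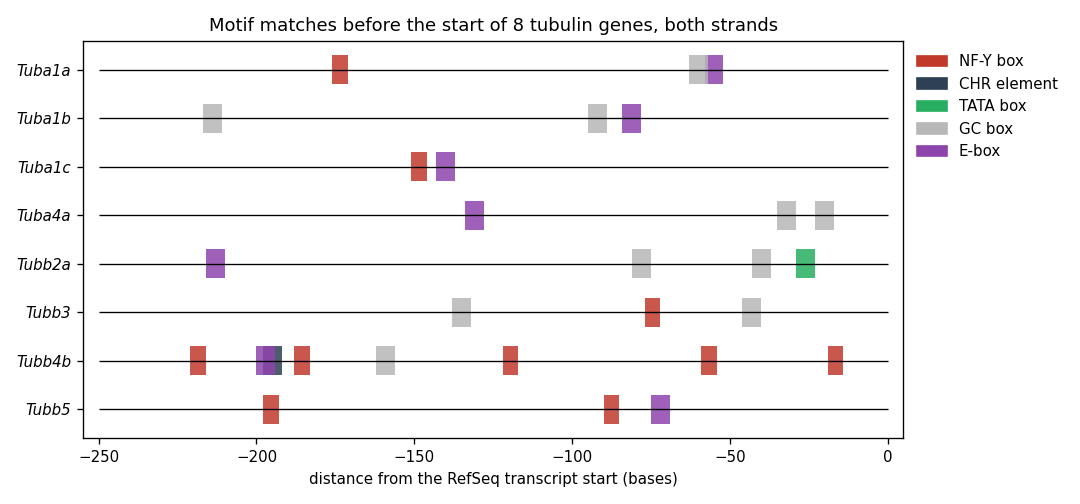
Matches to the 5 motifs in the promoter windows of the 8 tubulin genes with a RefSeq window, plotted by distance in bases from the annotated start of the gene, 1 line per gene. Tubb4b carries 5 CCAAT boxes (labelled NF-Y box), the only CHR, which overlaps its E-box, and Tubb2a the only TATA box.

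The 16 libraries held between 1484750 and 3287461 reads on genes, and the 2 shallowest were KO myotubes 2 and 4. Fam134b itself averaged 207 ± 42.0 normalised read counts in WT myoblasts and 27.5 ± 5.49 in KO myoblasts, 232 ± 61.6 in WT myotubes and 41.8 ± 14.0 in KO myotubes (SD, n = 4), and each KO sample was below every WT sample of its stage. The KO cells also differed in muscle identity. The myoblast factor Myod1 averaged 282 ± 63.7 in WT myoblasts and 9.62 ± 4.70 in KO myoblasts, and no read of Myog, the factor that starts terminal differentiation, was found in any of the 4 KO myoblast libraries, against 114 ± 24.3 in WT myoblasts. All 14 muscle differentiation genes examined rose from myoblasts to myotubes in both genotypes. Of all genes tested 13.8% were called higher in WT and 17.3% in KO differentiation. The 14 genes summed to 2015 to 3067 in WT myoblasts and to only 20.9 to 29.9 in KO myoblasts. They reached 29987 to 47352 in WT myotubes and 13036 to 17684 in KO myotubes. In KO myoblasts 13 of the 14 were called lower than in WT, and in KO myotubes 9 (8.50% and 13.7% of all genes tested). Between the genotypes the change with differentiation differed for 12, each higher in KO (1.97% of all genes tested). The neuronal markers, relevant because Tubb3 is best known as the beta-tubulin of neurons, summed to between 1.74 and 16.9 normalised read counts in the 16 samples, and none of the 9 was expressed highly enough to test.

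Tubulin transcripts were abundant and became a smaller part of the message in myotubes. Together the 10 genes took 0.976% ± 0.0441 of all reads on genes in WT myoblasts and 0.704% ± 0.136 in WT myotubes (SD, n = 4). In KO cells the share was 0.942% ± 0.205 in myoblasts and 0.564% ± 0.142 in myotubes. The alpha-tubulin genes summed to between 13079 and 13614 normalised read counts in WT myoblasts and between 9251 and 16098 in KO myoblasts. In myotubes their sums were 7920, 7940, 8485 and 12645 (WT) and between 4785 and 9204 (KO). The ranges of WT myoblasts and WT myotubes were separate for the alpha genes, with WT myotubes 2 close below the myoblasts. Those of KO cells were also separate, by a narrow gap (lowest myoblast sum 9251, highest myotube sum 9204). For the beta genes the sums went from a range of 11983 to 14309 in myoblasts to one of 8305 to 13518 in myotubes of the WT, and from 11006 to 17659 in myoblasts to 5710 to 12709 in myotubes of the KO, and both pairs of ranges overlapped. In bulk RNA, fewer cells of a kind and less RNA per cell cannot be told apart.

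Tubb5 supplied the largest part of the beta-tubulin message in each group, while no single alpha gene led in all 4. To compare genes, normalised read counts were divided by the length of the longest coding transcript in kb. On this scale Tubb5, the broadly expressed beta-tubulin of dividing cells, made up 58.8% ± 4.03 of the beta-tubulin message in WT myoblasts, 49.2% ± 5.71 in WT myotubes, 64.0% ± 3.28 in KO myoblasts and 58.0% ± 5.86 in KO myotubes (SD, n = 4). Tubb4b came after it in myoblasts, with 22.7% ± 3.16 in WT and 19.6% ± 2.65 in KO cells. In WT myotubes Tubb4b held 13.4% ± 2.38, Tubb2a 16.3% ± 5.18 and Tubb6 17.2% ± 4.83, so that these 3 could not be ranked beyond their spread. Tubb6 took 6.05% ± 0.685 in WT myoblasts, 4.94% ± 0.937 in KO myoblasts and 11.3% ± 3.35 in KO myotubes. Its highest share in any myoblast sample was 7.0% and its lowest in WT myotubes was 10.5%, whereas the lowest in KO myotubes was 7.16%. Tubb3 remained between 0.16% and 0.26% on average in every group.

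Among the alpha genes, Tuba1a, Tuba1b and Tuba1c each held a large part and Tuba4a a small one. Tuba1b had the highest mean share in WT myoblasts and KO myotubes and Tuba1a in KO myoblasts and WT myotubes. Per kb, Tuba1a made up 30.8% ± 1.21 of the alpha-tubulin message in WT myoblasts (29.6% to 32.5%) and 41% ± 5.40 in KO myoblasts (33.7% to 46.1%). A share also moves with the other genes of its sum. The level of Tuba1a itself overlapped between these groups and was not called (log2 fold change 0.18, SE 0.17, adjusted p = 0.541). In myotubes its share was 39.2% ± 10.2 in WT and 36.5% ± 6.20 in KO cells. Tuba1b held 33.3% to 40.7% and Tuba1c 19.0% to 26.8% as group means. Tuba4a, an isotype found in muscle and brain whose encoded protein lacks the final tyrosine that other alpha-tubulins carry, took 2.90% ± 0.104 in WT myoblasts, 1.99% ± 0.125 in KO myoblasts, 3.62% ± 0.604 in WT myotubes and 3.86% ± 0.589 in KO myotubes. Shares depended on the division by length. Without it, in WT myoblasts, Tubb5 held 69.2% ± 3.48, Tubb4b 16.1% ± 2.5, Tubb2a 6.03% ± 0.547 (8.42% ± 0.653 with it) and Tuba4a 4.44% ± 0.189. Dividing by length fits reads spread along the transcript, and the sources used here do not state where along the transcript the reads fall.

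**Figure D2:**
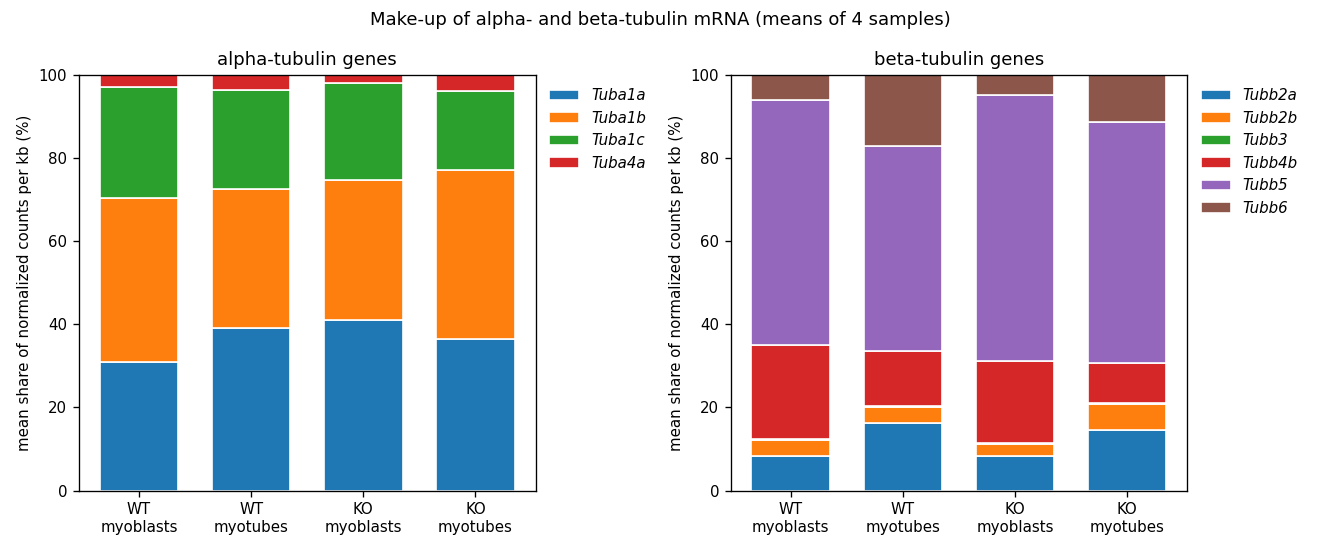
Stacked bars of the mean share (%) of each gene in the summed alpha-tubulin (left) and beta-tubulin (right) normalised counts per kb, mean of 4 samples in each of the 4 groups. Tubb5 is the largest beta segment in each group (49.2% to 64.0%), Tubb6 and Tubb2a widen in myotubes and Tubb4b narrows, and Tubb3 is too small to see.

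The sequence at the transcript ends sets how well these genes can be separated. Of the 31-base words in the last 500 bases, 71.9% were shared with another annotated gene for Tuba1c, 65.7% for Tuba1b and 58.1% for Tuba1a, mostly with each other and with the gene model Gm17383. The share was 50.6% for Tubb2a, mostly with Tubb2b, and 46.4% for Tubb4b, mostly with its pseudogenes. It was 3.62% for Tubb3 and Tubb6 and 0 for Tuba4a, Tubb2b and Tubb5. Values of Tuba1a, Tuba1b, Tuba1c, Tubb2a and Tubb4b are therefore uncertain where reads ended in shared words, since their treatment in counting is not stated. Exons of Tuba4a, Tubb4b and Tuba1b overlap genes on the opposite strand (Stk16, Fam166a and Gm41396), and Gm49450 overlaps exons of Tuba1a and Tuba1b on the same strand. Whether counting used the strand is not stated either.

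The question of the differentiation comparison in WT cells was which tubulin genes change as myoblasts become myotubes. Tubb6 and Tubb2a rose and Tubb4b fell, while the most abundant genes had lower means that did not pass the test. Of the 10 genes, 3 were called at an adjusted p under 0.05, 2 higher and 1 lower, beside 23.0% of all genes tested (13.8% higher and 9.16% lower). The median log2 fold change of the 10 was -0.50, against -0.01 for all genes tested.

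Tubb6, a widely expressed beta-tubulin known to be raised in regenerating and dystrophic muscle fibres, had the largest rise. Its normalised read counts in WT myoblasts were 595, 667, 593 and 626 and in WT myotubes 1260, 1106, 1360 and 1606. Each WT myotube sample exceeded every WT myoblast sample, as was so for 16.1% of all genes tested (12.0% were lower in every sample). The fitted log2 fold change was 1.09 (SE 0.14, adjusted p = 9.07e-06), a 2.13-fold rise. Tubb2a, a beta-tubulin abundant in brain, was at 833, 811, 753 and 776 in WT myoblasts and at 1525, 968, 934 and 1230 in WT myotubes, again without overlap. Its log2 fold change was 0.53 (SE 0.17, adjusted p = 0.0297), and the call was lost when any of 5 of the 8 WT libraries was left out. The adjusted p was then 0.0509, 0.0792 and 0.0703 without WT myoblasts 2, 3 and 4, and 0.123 and 0.0817 without WT myotubes 1 and 4.

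Tubb4b, a beta-tubulin of cilia and of dividing cells, went the opposite way. It read 1821, 2126, 2266 and 2234 in WT myoblasts and 777, 1605, 826 and 815 in WT myotubes. All 4 myotube samples were below the myoblasts, 3 of them closely grouped and WT myotubes 2 far above these. The log2 fold change was -1.14 (SE 0.23, adjusted p = 0.00117).

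The same library stood apart for Tuba1b, Tubb2b and Tubb5. Tubb5 counted 10454, 7846, 8348 and 10085 in WT myoblasts and 5098, 9165, 4878 and 5219 in WT myotubes, where replicate 2 lay among the myoblasts. The log2 fold change was -0.63 (SE 0.27, adjusted p = 0.0936), and it was -0.85 with an adjusted p of 0.0212 when WT myotubes 2 was left out. Tuba1b, the alpha-tubulin most tied to proliferating cells, was at 4638, 6243, 4912 and 4038 in WT myoblasts and 2409, 4692, 2270 and 2416 in WT myotubes. It had a log2 fold change of -0.80 (SE 0.36, adjusted p = 0.116), and of -1.05 with an adjusted p of 0.0426 without WT myotubes 2. Tuba1c was at 4322, 2253, 4005 and 4648 and then at 1538, 4212, 2053 and 1920, so that the 2 groups overlapped through WT myoblasts 2 and WT myotubes 2. Its log2 fold change was -0.71 (SE 0.26, adjusted p = 0.0559), or -1.01 with an adjusted p of 0.00244 without WT myotubes 2. Without that library 6 of the 10 genes were called. It had the lowest muscle differentiation sum of the WT myotubes (29987) and the highest sum of the 20 proliferation markers (6751, against 4206 to 5067 in the other 3). The part of that in the tubulin values was not tested.

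The 4 remaining genes did not pass the test in WT cells. Tuba1a, the alpha-tubulin of the developing brain, had a log2 fold change of -0.26 (SE 0.17, adjusted p = 0.281), Tuba4a one of -0.26 (SE 0.19, adjusted p = 0.351) and Tubb2b, a beta-tubulin of developing neurons, one of -0.40 (SE 0.38, adjusted p = 0.479). Tubb3 had only 9 to 31 reads per WT library, and its log2 fold change of -0.61 (SE 0.39, adjusted p = 0.283) did not pass the test.

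**Figure D3:**
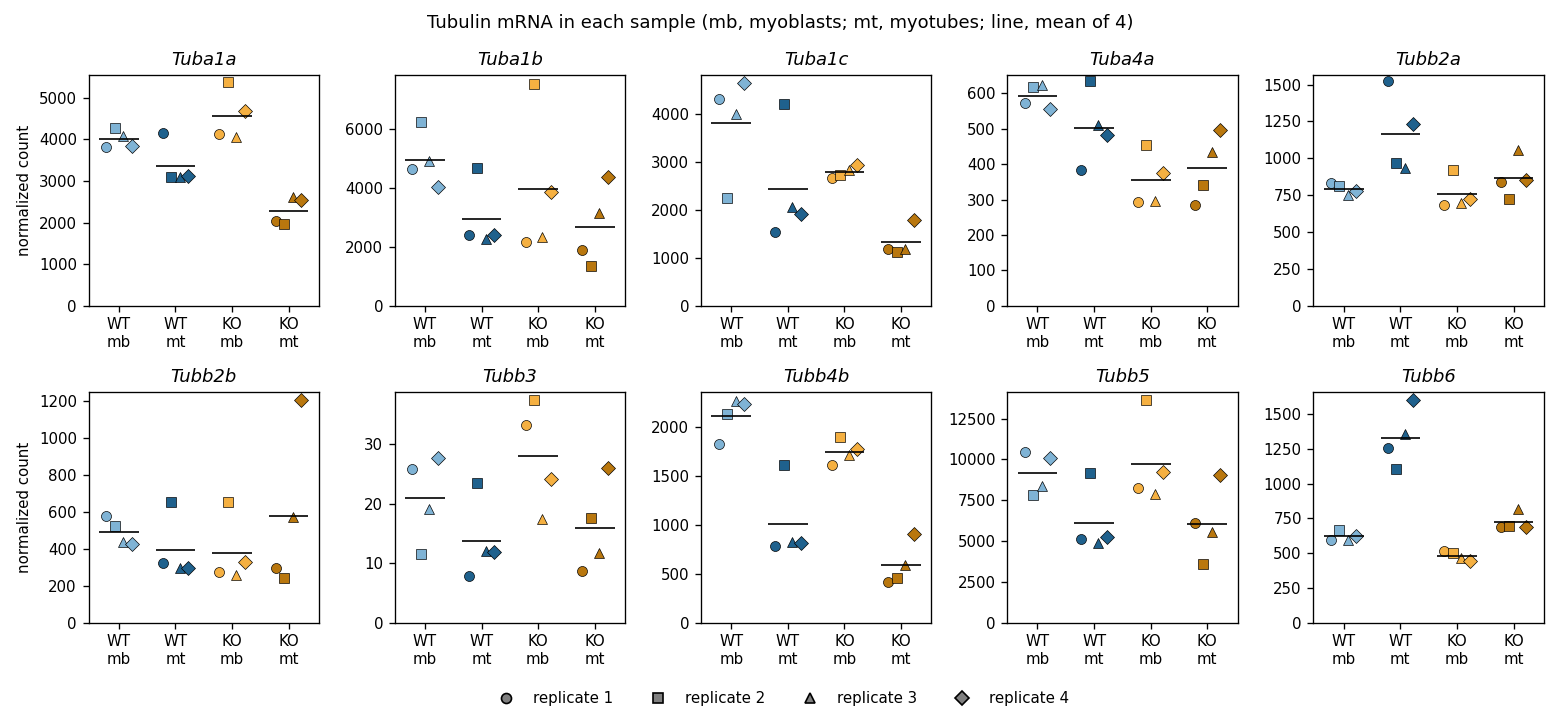
Normalised read counts of the 10 tubulin genes in the 16 samples, 1 panel per gene with its own y axis from 0, the 4 groups along the x axis (mb, myoblasts, and mt, myotubes), a point per sample shaped by replicate and a line for the mean of 4. Tubb6 is higher in myotubes than in myoblasts in both genotypes, Tubb4b is lower, and WT myotubes 2 stands above the other WT myotubes for Tuba1b, Tubb2b, Tubb4b and Tubb5.

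Fold changes at the same step were mostly negative in KO cells, as they were in WT cells (median -0.50). In KO cells Tubb4b, Tuba1c, Tuba1a and Tubb5 fell and Tubb6 rose. These were 5 calls of 10, beside 33.4% of all genes tested (17.3% higher and 16.1% lower). The median log2 fold change of the 10 was -0.62, against -0.02 for all genes tested. Tubb4b was at 1607, 1894, 1706 and 1772 in KO myoblasts and at 416, 457, 589 and 903 in KO myotubes, with no overlap (13.1% of all genes tested were lower in this way and 14.3% higher). Its log2 fold change of -1.63 (SE 0.23, adjusted p = 1.31e-05) was the largest fall of any tubulin gene in the 4 pairwise comparisons, 3.08-fold. Tuba1c was at 2666, 2727, 2828 and 2942 in KO myoblasts and 1192, 1131, 1183 and 1782 in KO myotubes. The myoblast samples were tightly grouped and above all myotubes, and the log2 fold change was -1.10 (SE 0.26, adjusted p = 0.00276).

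Tuba1a, whose WT values differed little between stages, was at 4136, 5382, 4064 and 4675 in KO myoblasts and 2037, 1974, 2604 and 2538 in KO myotubes. Every myotube sample was below every myoblast sample. The log2 fold change was -1.0 (SE 0.17, adjusted p = 1.05e-04). Tubb5 was at 8250, 13655, 7860 and 9219 and then at 6080, 3572, 5525 and 9032, so that KO myotubes 4 lay among the myoblasts. Its log2 fold change was -0.73 (SE 0.27, adjusted p = 0.0414), a call that rested on single libraries: the adjusted p was 0.127 without KO myoblasts 2 and 0.152 without KO myotubes 2.

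Tubb6 rose in KO cells from 519, 500, 463 and 443 to 688, 697, 815 and 687, with no overlap. The log2 fold change was 0.58 (SE 0.14, adjusted p = 0.00311), a 1.5-fold rise. Tubb2a, at 685, 918, 700 and 722 and then 839, 722, 1057 and 855, had a log2 fold change of 0.20 (SE 0.17, adjusted p = 0.395). Tuba1b spread widely in both KO groups, from 2155 to 7536 in myoblasts and from 1338 to 4388 in myotubes, and its log2 fold change was -0.52 (SE 0.36, adjusted p = 0.288). Tubb2b spread from 259 to 655 and from 244 to 1205 (log2 fold change 0.43, SE 0.38, adjusted p = 0.411). Tuba4a (0.12, SE 0.19, adjusted p = 0.650) and Tubb3 (-0.83, SE 0.39, adjusted p = 0.111) did not pass the test, and Tubb3 reached an adjusted p of 0.0402 without KO myotubes 4.

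Between KO and WT myoblasts 1 of the 10 genes was called, Tuba4a, beside 15.8% of all genes tested (7.26% higher and 8.50% lower). The median log2 fold change of the 10 was -0.32, against -0.01 for all genes tested, and with sample weights 5 of the 10 were called. It was at 573, 617, 624 and 556 in WT myoblasts and at 294, 454, 297 and 374 in KO myoblasts. All 4 KO samples were below the WT samples, as for 14.0% of all genes tested (12.8% were above). The log2 fold change was -0.76 (SE 0.19, adjusted p = 0.00734), 1.70-fold lower, and the call was kept under each alternative and with any 1 library left out. Tubb6 was also lower in every KO myoblast sample than in every WT one, but its log2 fold change of -0.37 (SE 0.14, adjusted p = 0.0855) did not pass the test. For the other 8 genes the log2 fold changes lay between -0.49 (Tuba1b) and 0.41 (Tubb3), with adjusted p of 0.359 or more. With 1 library left out, the value of Tuba1b ran from -0.86 (without KO myoblasts 2) to -0.26, that of Tubb2b from -0.77 (without KO myoblasts 2) to -0.32 and that of Tuba1c from -0.63 (without WT myoblasts 2) to -0.28. KO myoblasts 2 was the highest KO myoblast sample for Tuba1a, Tuba1b, Tuba4a, Tubb2a, Tubb2b, Tubb3, Tubb4b and Tubb5, and it also had the highest proliferation marker sum of that group (11470, against 7234 to 7880).

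In myotubes 4 tubulin genes were lower in KO than in WT cells and none was called higher, beside 23.4% of all genes tested (9.74% higher and 13.7% lower). They were Tubb6, Tubb4b, Tuba1c and Tuba1a. The median log2 fold change of the 10 genes was -0.39, against -0.07 for all genes tested. Tubb6 had the clearest difference, with 1260, 1106, 1360 and 1606 in WT and 688, 697, 815 and 687 in KO myotubes. The highest KO sample was well under the lowest WT sample, a separation found for 10.8% of all genes tested (8.52% were separated upwards). The log2 fold change was -0.87 (SE 0.14, adjusted p = 1.33e-04), 1.83-fold lower, and the call was kept under each alternative and with any 1 library left out.

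Tuba1a also separated the genotypes, with 4154, 3105, 3085 and 3122 in WT and 1974 to 2604 in KO myotubes. Its log2 fold change was -0.56 (SE 0.17, adjusted p = 0.0202), or -0.45 with an adjusted p of 0.0564 without WT myotubes 1. Tubb4b had a log2 fold change of -0.76 (SE 0.23, adjusted p = 0.0196), with KO myotubes 4 at 903 inside the WT range of 777 to 1605. Tuba1c had one of -0.79 (SE 0.26, adjusted p = 0.0325), with KO myotubes 4 at 1782 above WT myotubes 1 at 1538. For both genes WT myotubes 2 was the highest WT sample, and without it the adjusted p was 0.0752 for Tubb4b and 0.124 for Tuba1c, whose log2 fold change was then -0.49. In a two-sided exact permutation test over the 8 samples, whose smallest possible p is 0.0286, Tubb6 and Tuba1a gave 0.0286, Tuba1c 0.0571 and Tubb4b 0.114.

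Without KO myotubes 1 or without KO myotubes 2, Tubb6 alone of the 10 genes was called in myotubes. With the 2 shallowest KO myotube libraries left out together, Tubb6, Tubb4b and Tuba1c remained called and Tuba1a had an adjusted p of 0.0686. Tubb2a (log2 fold change -0.41, SE 0.17, adjusted p = 0.0879) and Tuba4a (-0.38, SE 0.19, adjusted p = 0.158) missed the threshold. The difference for Tubb5, the most abundant gene, was -0.03 (SE 0.27, adjusted p = 0.945). Values for Tuba1b (-0.21, SE 0.36), Tubb2b (0.36, SE 0.38) and Tubb3 (0.19, SE 0.39) were smaller than their errors.

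**Figure D4:**
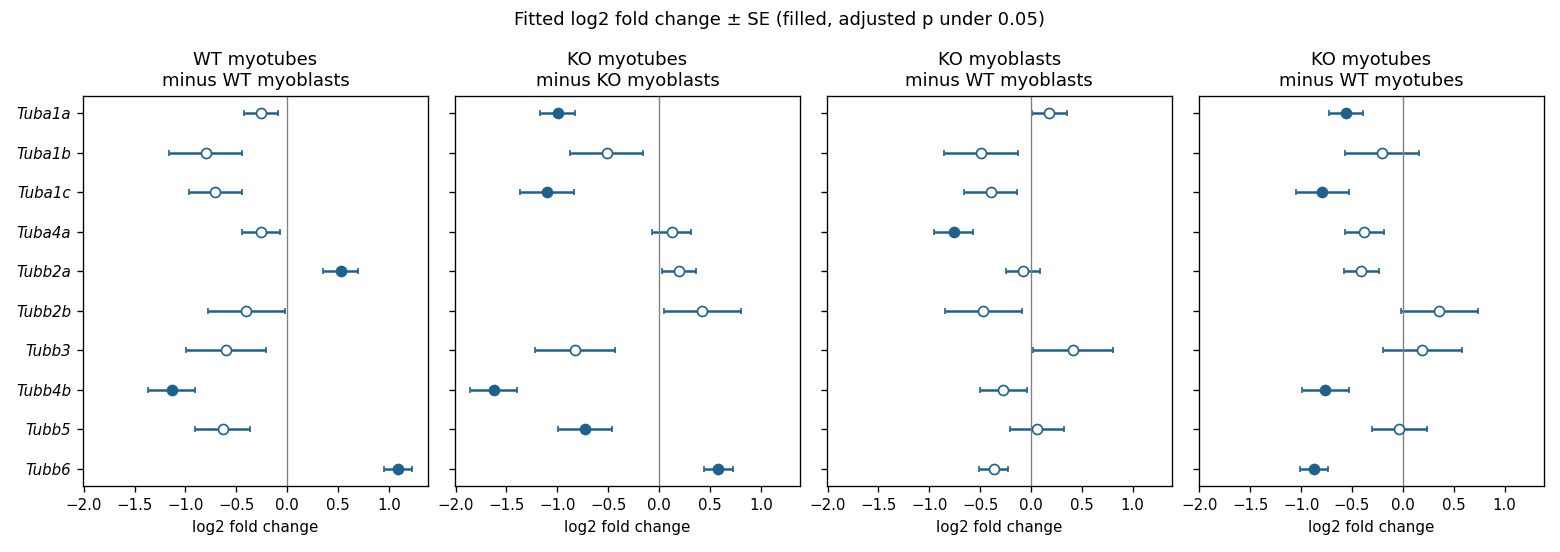
Fitted log2 fold change with its standard error for the 10 genes in the 4 pairwise comparisons, filled where the adjusted p was under 0.05. The filled points are Tubb6 and Tubb2a (higher) and Tubb4b in WT differentiation, Tubb6 (higher) and Tubb4b, Tuba1c, Tuba1a and Tubb5 in KO differentiation, Tuba4a in myoblasts, and Tubb6, Tubb4b, Tuba1c and Tuba1a in myotubes.

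Whether differentiation changed a tubulin gene by a different amount in KO than in WT cells was tested as an interaction. None of the 10 genes was called by limma, beside 3.45% of all genes tested (1.97% higher and 1.48% lower), and 2 had an unadjusted p under 0.05. For Tuba1a the difference of the log2 fold changes (KO minus WT) was -0.74 (SE 0.24, adjusted p = 0.0981, unadjusted p = 0.00533). For Tubb6 it was -0.51 (SE 0.20, adjusted p = 0.179, unadjusted p = 0.0189). A different response of KO cells was therefore not shown for any tubulin gene in this fit. With limma voom on reads Tuba1a was called (-0.80, adjusted p = 0.0370), and with sample weights Tubb2b (1.24, adjusted p = 0.0272) and Tubb6 (-0.62, adjusted p = 0.0348).

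Of 10 further tubulin genes, which include the gamma-tubulins that nucleate microtubules and the delta- and epsilon-tubulins of centrioles, Tubg1 and Tube1 were expressed highly enough to test. Tubg1 was at 423, 561, 550 and 438 in WT myoblasts and at 161, 415, 279 and 237 in WT myotubes, and fell in both genotypes (log2 fold change -0.92, SE 0.26, adjusted p = 0.0131 in WT and -1.04, SE 0.26, adjusted p = 0.00379 in KO cells). Tube1 fell in KO cells (-0.94, SE 0.35, adjusted p = 0.0443) and had -0.49 (SE 0.35, adjusted p = 0.335) in WT cells. With 4 to 28 reads per library its call was borderline, and in 21 of 29 alternatives 1 of this pair, not both, was called in KO differentiation. Neither was called between genotypes. Tuba3a, Tuba3b, Tuba8, Tubal3, Tubb1 and Tubb4a had at most 2 reads in any library.

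Nascent tubulin needs the prefoldin and CCT chaperonins and the tubulin cofactors to fold into a dimer. Of 21 genes of this path 20 were matched and tested, all but Cct6a. In WT differentiation 2 fell (Tcp1, a CCT subunit, log2 fold change -0.68, SE 0.19, adjusted p = 0.0132, and the prefoldin Pfdn6, -0.83, SE 0.26, adjusted p = 0.0248). In KO differentiation 6 fell, among them Pfdn6 (-0.96, SE 0.26, adjusted p = 0.00662), Tcp1 (-0.73, SE 0.19, adjusted p = 0.00531) and the CCT subunit Cct5 (-0.71, SE 0.19, adjusted p = 0.00636). The median log2 fold change of the 20 was -0.36 in WT and -0.25 in KO differentiation. Of all genes tested 9.16% fell in WT and 16.1% in KO differentiation. Between genotypes 15.8% of all genes were called in myoblasts and 23.4% in myotubes. In the folding list 1 gene was called in each stage. These were Cct8 in myoblasts (-0.43, SE 0.14, adjusted p = 0.0319) and Pfdn1 in myotubes (-0.47, SE 0.17, adjusted p = 0.0498). The counts for this list were not stable. Over the alternatives they ran from 0 to 13 in WT differentiation, 0 to 2 in myoblasts and 0 to 3 in myotubes. The count in myotubes differed from 1 in 21 of 29 alternatives.

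Tubulin mRNA is also destroyed when free dimer builds up, through TTC5, which binds the nascent chain, and SCAPER and CNOT11, which bring in the deadenylase. None of Ttc5, Scaper and Cnot11 was called by limma in any of the 5 comparisons, nor by limma voom, and 1 of the 15 values had an unadjusted p under 0.05, the interaction of Cnot11 (-0.54, SE 0.26, unadjusted p = 0.0485, adjusted p = 0.283). Ttc5 had log2 fold changes of 0.44 (SE 0.22, adjusted p = 0.160) in WT and 0.31 (SE 0.22, adjusted p = 0.303) in KO differentiation. Cnot11 had 0.17 (SE 0.18, adjusted p = 0.539) and -0.37 (SE 0.18, adjusted p = 0.124), and Scaper 0.22 (SE 0.34, adjusted p = 0.691) and 0.16 (SE 0.34, adjusted p = 0.755). The differences between the genotypes for the 3 genes lay between -0.23 and 0.31, with adjusted p of 0.285 or more.

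Of 18 genes that act in the modification of tubulin, 15 were tested. In WT differentiation 3 rose: Svbp, the partner of the detyrosinating vasohibins (log2 fold change 1.03, SE 0.25, adjusted p = 0.00553), the polyglutamylase Ttll5 (0.79, SE 0.17, adjusted p = 0.00202) and the tubulin deacetylase Sirt2 (0.62, SE 0.16, adjusted p = 0.00902). Ttll1, a glutamylase subunit, fell (-0.99, SE 0.36, adjusted p = 0.0496). In KO differentiation 4 rose, including Sirt2 (0.87, SE 0.16, adjusted p = 3.10e-04), the acetyltransferase Atat1 (0.86, SE 0.22, adjusted p = 0.00533) and Ttll11 (2.49, SE 0.35, adjusted p = 1.12e-05), and Ttll12 fell (-1.19, SE 0.19, adjusted p = 7.21e-05). Ttll11 was the 1 gene of this list with a called interaction (1.97, SE 0.49, adjusted p = 0.0273), and the number called ran from 0 to 2 over the alternatives, differing from 1 in 14 of 28. It had 3.34 to 5.81 normalised counts in KO myoblasts against 14.8 to 23.1 in WT myoblasts. In myoblasts 3 were lower in KO cells and none higher, Ttll11 (-1.93, SE 0.35, adjusted p = 3.34e-04), the carboxypeptidase Agbl5 (-1.44, SE 0.37, adjusted p = 0.00957) and Ttll7 (-0.81, SE 0.20, adjusted p = 0.00774). In myotubes Svbp (-0.99, SE 0.25, adjusted p = 0.00693) and Ttll12 (-0.55, SE 0.19, adjusted p = 0.0424) were lower in KO cells. These 2 calls became 1 to 3 over the alternatives. Over all genes tested, 13.8% rose and 9.16% fell in WT differentiation, and 17.3% and 16.1% in KO differentiation. In KO myoblasts 7.26% of all genes were higher and 8.50% lower, and in KO myotubes 9.74% and 13.7%. The interaction was called for 3.45%.

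Of 14 genes of proteins that bind along the microtubule wall, 11 were tested. The microtubule-binding kinase Dclk1 rose in WT differentiation from a mean of 208 ± 24.9 to 1010 ± 192 normalised counts (log2 fold change 2.26, SE 0.17, adjusted p = 5.54e-09). In KO cells it was already at 526 ± 35.8 in myoblasts and reached 1034 ± 227 (0.95, SE 0.17, adjusted p = 2.72e-04), and its interaction was called (-1.32, SE 0.25, adjusted p = 0.00283). Map2, best known from dendrites, was higher in KO cells at both stages (1.12, SE 0.19, adjusted p = 2.31e-04 in myoblasts and 1.65, SE 0.19, adjusted p = 4.25e-06 in myotubes). Tppp3, which promotes polymerisation, was lower at both (-1.04, SE 0.22, adjusted p = 0.00179 and -1.0, SE 0.22, adjusted p = 0.00221). In the whole list 2 rose and 1 fell in WT differentiation, and 4 rose and 1 fell in KO differentiation. In KO myoblasts 2 were higher and 1 lower, and in KO myotubes 1 was higher and 2 lower. Of all genes tested 23.0%, 33.4%, 15.8% and 23.4% were called in these 4 comparisons, in that order.

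Of 20 genes that act at microtubule ends, 17 were tested. Stmn1, which sequesters tubulin dimers, fell in both genotypes (log2 fold change -1.70, SE 0.40, adjusted p = 0.00391 in WT and -1.72, SE 0.40, adjusted p = 0.00211 in KO cells), as did the depolymerising kinesin of the spindle Kif2c (-1.08, SE 0.19, adjusted p = 3.91e-04 and -2.19, SE 0.19, adjusted p = 2.20e-08). Kif2c was also lower in KO than in WT myotubes (-1.01, SE 0.19, adjusted p = 6.90e-04) and had the 1 called interaction of this list (-1.11, SE 0.27, adjusted p = 0.0258), a count that was 0 in 7 of 28 alternatives. The end-binding gene Mapre3 rose in both (1.00, SE 0.23, adjusted p = 0.00357 and 1.28, SE 0.23, adjusted p = 2.00e-04). Stmn2, a neuronal relative of Stmn1, was lower in KO cells at both stages (-1.11, SE 0.13, adjusted p = 2.75e-06 in myoblasts and -1.55, SE 0.13, adjusted p = 9.84e-08 in myotubes). The list had 1 gene higher and 4 lower in WT differentiation, and 2 higher and 6 lower in KO differentiation. It had 1 higher and 2 lower in KO myoblasts, and 1 higher and 2 lower in KO myotubes. Of all genes tested 23.0%, 33.4%, 15.8% and 23.4% were called in these 4 comparisons, in that order. For this list the count of 3 in myoblasts ran from 1 to 7 over the alternatives.

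Of 22 genes that organise microtubules at the centrosome or the nuclear envelope, all were tested. In WT differentiation 3 rose and 2 fell, beside 23.0% of all genes tested (13.8% higher and 9.16% lower). Those that rose were Sun1 and Sun2 of the nuclear envelope (log2 fold change 1.76, SE 0.30, adjusted p = 2.72e-04 and 0.68, SE 0.22, adjusted p = 0.0337) and Akap6, which anchors centrosomal proteins there in muscle (2.15, SE 0.56, adjusted p = 0.00904). Those that fell were the centriole kinase Plk4 (-1.55, SE 0.23, adjusted p = 5.85e-05) and Cdk5rap2 (-1.01, SE 0.28, adjusted p = 0.0126). In KO differentiation 1 rose, Sun1 (1.34, SE 0.30, adjusted p = 0.00187), and 6 fell. The largest fall was that of Syne2, also of the nuclear envelope (-1.74, SE 0.35, adjusted p = 5.63e-04). Plk4 (-1.58, SE 0.23, adjusted p = 2.24e-05) and Tubgcp2 (-1.15, SE 0.20, adjusted p = 1.69e-04) fell too. In myotubes 4 were lower in KO cells, with Akap6 the largest (-1.99, SE 0.56, adjusted p = 0.0144), and 1 was higher, Mzt2 (0.78, SE 0.21, adjusted p = 0.00903). Syne2 was among the lower genes (-1.02, SE 0.35, adjusted p = 0.0368). In myoblasts 1 was lower and 1 higher. The called share over all genes tested was 33.4% in KO differentiation (17.3% higher and 16.1% lower), 23.4% in myotubes and 15.8% in myoblasts. Over the alternatives the count for this list ran from 1 to 8 in myotubes and from 0 to 3 in myoblasts. Akap6 was a low gene, at 1.46 to 30.6 normalised counts in KO myotubes and 29.7 to 75.1 in WT myotubes.

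Proliferation markers fell in both genotypes as myoblasts became myotubes. The summed level of 20 proliferation markers went from 8980 to 9818 in myoblasts down to 4206 to 6751 in myotubes of the WT, and from 7234 to 11470 down to 1757 to 3118 in the KO. Of these markers 16 fell in WT and 20 in KO differentiation, 2 were lower in KO myoblasts and 15 were lower in KO myotubes. Over all genes tested the shares called lower were 9.16%, 16.1%, 8.50% and 13.7%, in that order. In KO myotubes 4 tubulin genes were called lower too, but Tubb5 (log2 fold change -0.03, SE 0.27) and Tuba1b (-0.21, SE 0.36) were not. The KO myotube samples were all below the WT myotube samples in the proliferation sum, and the same was true of the muscle differentiation sum. The set listed as myoblast markers summed to 1165 to 1985 in WT and 340 to 460 in KO myoblasts, and to 3749 to 5587 in WT and 1566 to 2390 in KO myotubes. Of its 5 tested genes 4 were called higher in WT differentiation, and 4 higher and 1 lower in KO differentiation. Over all genes tested 13.8% and 17.3% were called higher. The sum is therefore no measure of undifferentiated cells here. Genes used as markers of other cell types were also examined, though bulk RNA does not show which cells carried their transcripts. Of the fibroblast genes, 2 of 3 tested (Col1a1 and Dcn) rose with differentiation in both genotypes. Lum, Thy1 and Tcf21 were too low to test. Col1a1 was higher in KO myoblasts (1.10, SE 0.34, adjusted p = 0.0294) and Dcn in KO myotubes (1.57, SE 0.50, adjusted p = 0.0265). The 6 fibroblast markers summed to 2260 to 4592 in WT and 3023 to 11545 in KO myoblasts, and to 10007 to 16317 in WT and 12295 to 24910 in KO myotubes, ranges that overlapped between genotypes. Of 2 adipocyte genes tested, Pparg was higher in KO myoblasts (1.84, SE 0.59, adjusted p = 0.0366) and fell in KO differentiation (-2.27, SE 0.59, adjusted p = 0.00543). The 1 osteoblast gene tested, Runx2, fell in both genotypes (-1.11, SE 0.30, adjusted p = 0.0119 in WT and -0.97, SE 0.30, adjusted p = 0.0182 in KO cells). The part of any of these in the tubulin values was not tested.

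**Figure D5:**
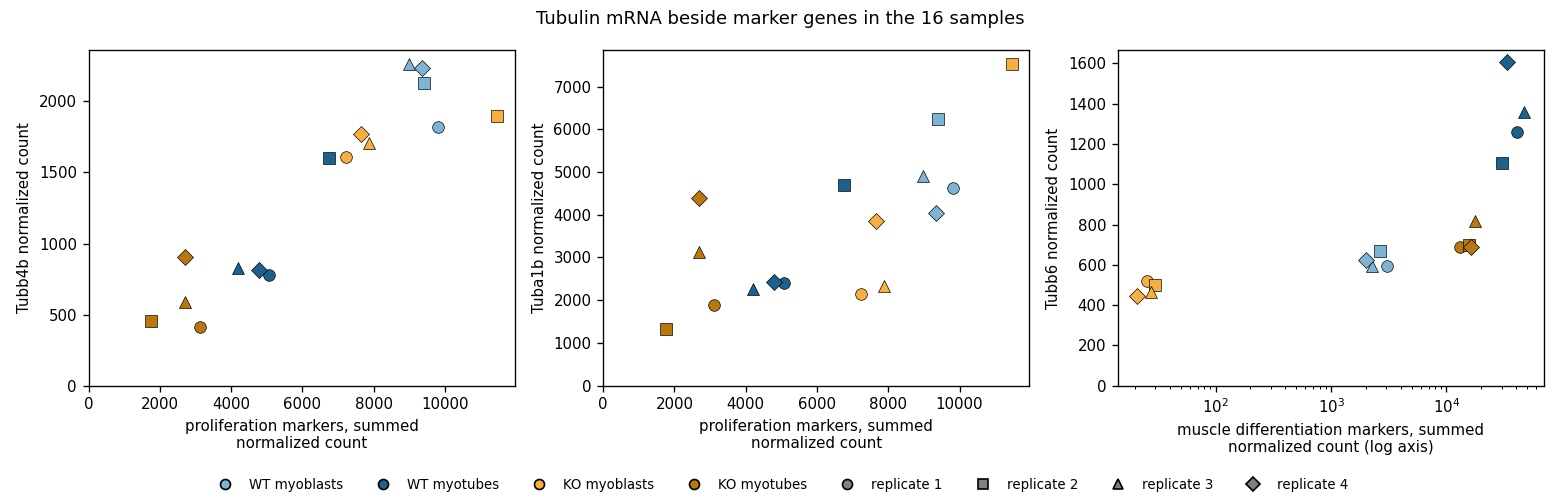
Normalised read count of Tubb4b (left) and Tuba1b (middle) against the summed normalised count of 20 proliferation markers, and of Tubb6 (right) against that of 14 muscle differentiation markers on a log axis, 1 point per sample, coloured by group and shaped by replicate. WT myotubes 2 lies nearest the myoblasts for Tubb4b, and the 4 WT myotubes, highest in muscle markers (29987 to 47352), are also highest in Tubb6 (1106 to 1606).

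The genes differed in what their profile over the 16 samples resembled most, given here as Pearson's r of log2 values over all samples, which share libraries and group differences. Tubb4b was closest to the kinetochore and spindle genes Spc25 (0.979) and Knstrn (0.977). Tuba1a was closest to the centromere genes Cenpw (0.927) and Incenp (0.923), and Tuba1c to the actin-binding gene Cotl1 (0.961) and the kinetochore gene Pmf1 (0.960). Tubb6 was closest to Tmem38a (0.952), a cation channel of the sarcoplasmic reticulum, and Tcap (0.950), a sarcomere protein. The nearest were Siva1 (0.948) and Rpsa (0.932) for Tuba1b, Pes1 (0.949) and Usp14 (0.945) for Tubb5, Bnip2 (0.942) and Fbxl7 (0.932) for Tuba4a, Nufip2 (0.919) and Romo1 (0.890) for Tubb2b, Ubl4a (0.890) and Ptrf (0.887) for Tubb3, and Tmem129 (0.883) and Trim33 (0.878) for Tubb2a. Once group means were removed, the deviations of single samples were most alike for Tuba1b and Tubb2b (0.92), Tubb2b and Tubb5 (0.87), and Tuba1b and Tuba4a (0.86). The values of Tubb6 with the other 9 genes ran from -0.57 (Tuba1c) to 0.35 (Tubb2a).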

How the data were processed

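Messenger RNA of 16 C2C12 samples was sequenced (single-end) by a company's digital mRNA service. Per the labels and the study's methods, the authors trimmed reads with bbduk, removed ribosomal and phiX reads, aligned with STAR 2.6.0a (mm10) and counted genes with HTSeq. The deposited values are log2 of a normalised count plus 1; the tool that normalised them is not given in the sources used here. Each sample's values above 0 were whole multiples of 1 step (100% within 0.01), which gave the reads, 1484750 to 3287461 per sample. A count of 3 reads was taken as the detection floor.

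Genes with a normalised count of at least 10 in at least 4 samples (10767) were fitted in 1 model of 4 group means with limma 3.58.1 (trend) in R 4.3.3, on log2(normalised count + 1), so that fold changes of low genes are understated. A gene was called where its p, adjusted by Benjamini-Hochberg over all genes tested, was under 0.05. The script was tested on simulated data. Single values were also compared by two-sided exact permutation tests. Shares within the alpha and beta genes, counts over gene lists and correlations carry no test.

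The tubulin genes and the gene lists were chosen with earlier results of these data known. Named were all 10 tubulin genes, Fam134b, the other tubulin and autoregulation genes, up to 3 called genes per direction of each further list, and the 2 genes most like each tubulin gene. List genes were matched by symbol, or by identifier for Svbp, Mymk and Mymx. Alternatives covered pseudocounts of 0.5 and 5, filters, scaling, voom, sample weights, the 8 samples compared, the replicate block and leaving out samples.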

Additional observations from a re-analysis of the deposited data

Results flagged for a closer look

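In 9 of the 40 sets of 4 samples (10 genes in 4 groups) 1 sample lay far from the other 3, by Dixon's 95% criterion for the gap over the range, which chance meets in about 1 in 20 sets. The sets share libraries and are not independent. WT myotubes 2 stood apart for 4 genes: Tuba1b at 4692 normalised counts (2270 to 2416 in the other 3), Tubb2b at 651 (295 to 321), Tubb4b at 1605 (777 to 826) and Tubb5 at 9165 (4878 to 5219). KO myoblasts 2 stood apart for Tubb2a at 918 (685 to 722) and for Tubb2b at 655 (259 to 326). Tuba1a was at 4154 in WT myotubes 1 (3085 to 3122 in the others). In KO myotubes, Tuba1c was at 1782 in replicate 4 (1131 to 1192) and Tubb6 at 815 in replicate 3 (687 to 697). In each of these sets the sample apart was the highest. The criterion was applied to unlogged normalised counts, not to the log2 values of the tests. Unlogged counts widen gaps at the high end, so the number of sets flagged depends on this scale.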

How the results depend on the processing

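Alternatives changed how many of the 10 tubulin genes were called more than their directions. In WT differentiation (3 called) the count was 5 with voom, 8 with sample weights, 5 with only the 8 samples compared, 5 without the 2 shallowest KO myotube libraries (chosen after seeing the data), and 2 to 6 with 1 sample left out. In KO differentiation (5) it was 4 to 6 throughout. In KO against WT myoblasts (1) it was 5 with sample weights and 2 with the 8 samples, and 1 with any sample left out. In KO against WT myotubes (4) it was 1 with the 8 samples and 1 at an adjusted p under 0.01, and 1 to 4 with 1 sample left out. For the interaction (0) it was 1 with voom and 2 with sample weights. The cause was not tested. The rise of Tubb6 and the fall of Tubb4b in both genotypes, the lower Tubb6 in KO myotubes and the lower Tuba4a in KO myoblasts were called under every alternative run.

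Directions turned for uncalled differences only. With 1 sample left out, KO differentiation gave -0.0033 to 0.2626 for Tuba4a and -0.0251 to 0.7419 for Tubb2b, both negative without KO myotubes 4. Tubb5 in KO myoblasts gave -0.0789 with sample weights and -0.1138 to 0.1517 with 1 sample left out. In KO myotubes, sample weights gave 0.021 for Tuba1b and 0.0951 for Tubb5, and leaving out 1 sample gave -0.4903 to 0.0806 for Tuba1b, -0.2518 to 0.1943 for Tubb5, -0.0939 to 0.6732 for Tubb2b and -0.0657 to 0.4675 for Tubb3 (-0.3115 without the 2 shallowest KO myotube libraries). The interaction of Tubb3 was 0.1089 after quantile normalisation and -0.4786 to 0.0547 with 1 sample left out, and that of Tubb5 was 0.174 with sample weights and -0.3121 to 0.1339. No scaling moved the median of all genes by over 0.1. Quantile normalisation took the share of higher calls in WT differentiation from 60.1% to 49.7%.

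Samples with the same replicate number did not deviate together (mean r 0.033 over 24 pairs of samples, lowest -0.223, highest 0.369, against -0.0108 for different numbers). The sources used here do not say what the number stands for, and these correlations cannot show how samples were handled. With the replicate block the counts stayed at 3, 5, 1, 4 and 0. Depth limits Tubb3, at 9 to 45 reads per library. The interaction cannot be fitted on 8 samples.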
